A study of Mus musculus with 18 samples.

Results

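The 8 genes described here belong to the death receptor arm of apoptosis or encode caspases, in mouse duodenal epithelium. They are the ligand TRAIL (*Tnfsf10*), the death receptors *Tnfrsf10b*, *Fas* and *Tnfrsf1a*, the kinase *Ripk1*, the initiator caspases *Casp8* and *Casp9* and the effector caspase *Casp6*. They were taken by symbol from 18838 genes listed at 1 or more of 3 time points. Each was listed at all 3 time points, and all 8 passed the filter on low values, a mean normalized count of at least 10, at each of them.

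RNA was sequenced from 3 WT (*Mtgr1*+/+) mice and 3 mice labelled *Mtgr1*-/-, age-matched littermates of 8 to 12 weeks and of both sexes. Each mouse gave 3 libraries, one of crypts isolated from the duodenum (day 0), one of enteroids 24 h after the crypts were plated (day 1) and one of enteroids 72 h after plating (day 3). Enteroids are epithelial organoids grown from crypts. The study asked what loss of MTGR1, a transcriptional corepressor, changes in epithelium that is placed in culture. The deletion is carried throughout the animal, not in epithelium alone, and the allele is not given in the sources used here. The crypts went into culture from both genotypes, and no group received a further agent. The 16 libraries whose reads could be recovered held 22035300 to 28622000 reads on genes, with a median of 26258500.

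The targeted gene is listed as *Cbfa2t2* (ENSMUSG00000038533.15, chr2:154436481-154539356, plus strand, GRCm38). Crypts held 614, 523 and 595 normalized counts in WT and 697, 466 and 534 in the libraries labelled *Mtgr1*-/-, giving a log2 difference of -0.047 (95% interval -0.44 to 0.34, adjusted p = 0.917, limma). On day 1 the difference was 0.37 (95% interval 0.038 to 0.71, adjusted p = 0.0557, limma) and on day 3 0.056 (95% interval -0.20 to 0.31, adjusted p = 0.686, limma). Blocking on mouse number gave the day 1 value an adjusted p of 0.0399 (limma), and it also passed without *Mtgr1*-/- library 3 (adjusted p = 0.00765), with quantile normalization (0.0471), with array weights (0.00287) and in DESeq2 on recovered reads (0.0329). It was 0.25 without *Mtgr1*-/- library 1 and, with every library scaled to the same total, 0.053 (adjusted p = 0.787). No lower RNA level of the targeted gene was thus detected in the libraries labelled *Mtgr1*-/-, and the genotype is given below as the label of each library. Which part of the gene the deletion removes is not given in the sources used here, so this level does not check the labels by itself. *Xist*, which is transcribed from the inactive X chromosome, was at 9047 or more in 1 library of each genotype at every time point and at 19.6 or less in the others.

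In the extrinsic pathway of apoptosis, ligands of the TNF family bind death receptors at the cell surface, whose cytoplasmic death domains gather adaptors and the initiator caspase-8. Caspase-8 activates effector caspases directly or cleaves *Bid*, which opens the mitochondrial arm, where cytochrome c and *Apaf1* activate caspase-9. *Ripk1* is recruited to the TNF receptor and, depending on its ubiquitination, takes part in survival signalling, apoptosis or necroptosis. In the intestinal epithelium, cells are shed continuously, and these receptors are known for their role in loss of epithelial cells during inflammation.

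MTGR1 does not bind DNA by itself and is recruited by transcription factors, among them E proteins, which bind the E-box. For this reason, the 250 bases before the transcription start of 3 genes are shown, from RefSeq on GRCm38.p6. *Fas* had the largest positive difference between the genotypes in enteroids among the 8 genes. *Casp6* lost most of its WT level in culture together with *Fas*, and *Tnfsf10* was the gene that was lower in the libraries labelled *Mtgr1*-/-. Capitals mark each match to the E-box letters CANNTG, which read alike on both strands.
*Fas* (chr19:34290409-34290658, plus strand): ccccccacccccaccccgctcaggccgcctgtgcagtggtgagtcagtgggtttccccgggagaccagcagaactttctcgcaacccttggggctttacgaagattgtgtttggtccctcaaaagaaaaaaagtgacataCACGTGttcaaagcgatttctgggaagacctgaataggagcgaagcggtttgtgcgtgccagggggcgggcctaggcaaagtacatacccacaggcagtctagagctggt
*Casp6* (chr3:129901165-129901414, plus strand): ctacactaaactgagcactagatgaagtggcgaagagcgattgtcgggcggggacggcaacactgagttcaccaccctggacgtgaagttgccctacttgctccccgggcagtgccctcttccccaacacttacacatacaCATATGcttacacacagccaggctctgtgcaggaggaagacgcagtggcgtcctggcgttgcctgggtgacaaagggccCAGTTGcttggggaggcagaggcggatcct
*Tnfsf10* (chr3:27316827-27317076, plus strand): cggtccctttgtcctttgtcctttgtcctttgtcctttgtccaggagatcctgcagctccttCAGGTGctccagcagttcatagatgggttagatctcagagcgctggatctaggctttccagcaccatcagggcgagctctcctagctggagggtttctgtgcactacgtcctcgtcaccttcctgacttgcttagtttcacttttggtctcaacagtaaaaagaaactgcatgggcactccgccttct
RefSeq windows were found for 7 of the 8 genes. The window of *Fas* held 1 match (CACGTG), that of *Casp6* 2 (CATATG and CAGTTG) and that of *Tnfsf10* 1 (CAGGTG). *Casp8* had 3 matches, *Casp9* 1 and *Tnfrsf1a* 0, and *Ripk1* had 1 at one of its 2 starts and 0 at the other. A match stood in 66.2% of 32851 windows of the same length, so that its presence before these genes is a description of the letters only.

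In crypts, 1 of the 8 genes differed between the genotypes, and in enteroids nearly all did. *Tnfsf10* was lower in crypts of the libraries labelled *Mtgr1*-/-, and the other 7 had log2 differences between -0.13 and 0.21 that did not pass an adjusted p of 0.05 (limma). On day 1, *Fas*, *Tnfrsf1a*, *Casp6*, *Casp8*, *Tnfrsf10b*, *Casp9* and *Ripk1* were higher, by 1.296 to 3.02 fold. The same 7 genes were higher on day 3, by 1.27 to 2.49 fold, and *Tnfsf10* was lower. All fold changes are on the scale of log2(normalized count + 1), which understates changes of genes with low counts. Among all genes tested, 4.73% passed the threshold in crypts, 58.9% on day 1 and 59% on day 3. Counting genes that were higher, the 7 of 8 stand beside 30% of all genes on day 1 and 29.9% on day 3. The libraries of the genotypes were apart, with WT lower, for these 7 genes on both days, beside 34.2% of all genes on day 1 and 34.6% on day 3. The 1 gene that was lower in crypts stands beside 3.15% of all genes and that on day 3 beside 29.1%. The median log2 difference of the 8 genes was 0.072 in crypts, 0.72 on day 1 and 0.69 on day 3, against 0.0076, -0.0080 and 0.0026 over all genes tested. The 8 genes were chosen with earlier results of these data known, so these comparisons with all genes are a description only.

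**Figure D1:**
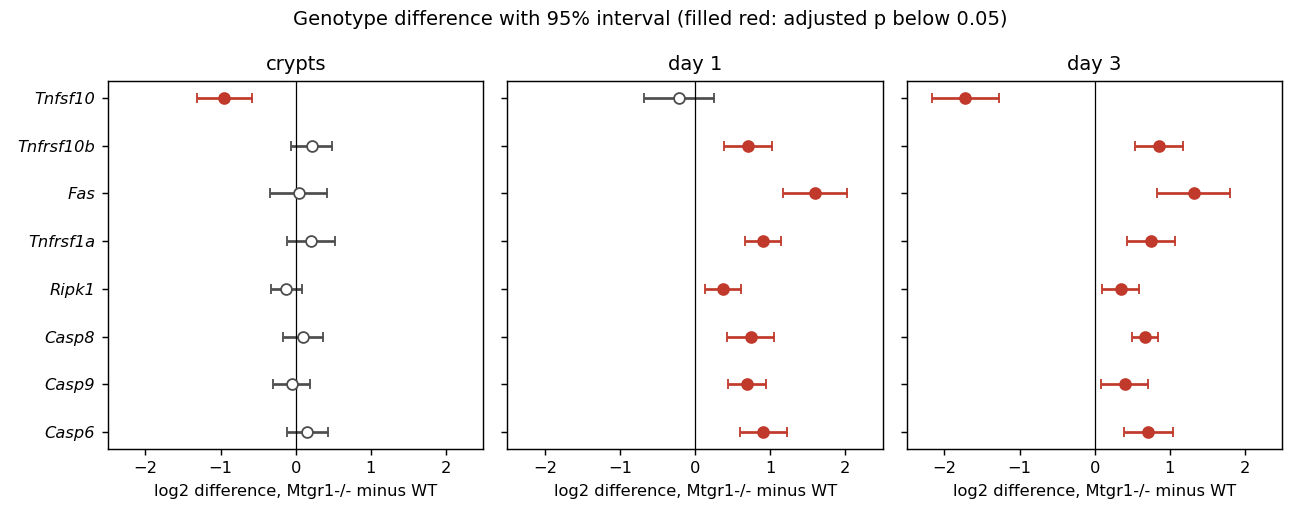
Log2 difference between the libraries labelled *Mtgr1*-/- and WT (x axis) for each of the 8 genes (y axis) in crypts, on day 1 and on day 3, with 3 libraries per genotype. Points are limma estimates, bars are 95% intervals and filled red points have an adjusted p below 0.05, which 1 point has in crypts, 7 on day 1 and 8 on day 3.

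The total of the normalized counts differed between the genotypes in enteroids and bears on each of these values. Its mean in the libraries labelled *Mtgr1*-/- was 0.981 times that of WT in crypts, 1.25 times on day 1 and 1.15 times on day 3. When every library was scaled to the same total, an alternative chosen after the data were seen, the median log2 difference over all genes moved to -0.33 on day 1 and -0.20 on day 3. Among all genes called, the split of higher and lower was then 2206 to 5588 on day 1, in place of 3776 to 3637, and 2755 to 5081 on day 3, in place of 3826 to 3719. Under that scaling, 5 of the 8 genes were higher on day 1 and 5 on day 3. The calls that were lost were those of *Ripk1* on both days (0.053, adjusted p = 0.606 and 0.14, adjusted p = 0.196, limma), *Tnfrsf10b* on day 1 (0.38, adjusted p = 0.0549) and *Casp9* on day 3 (0.20, adjusted p = 0.154). These 4 values lay above the shifted median of all genes. In enteroids, all 7 genes kept a positive difference under median-ratio rescaling, quantile normalization and library-total scaling.

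**Figure D2:**
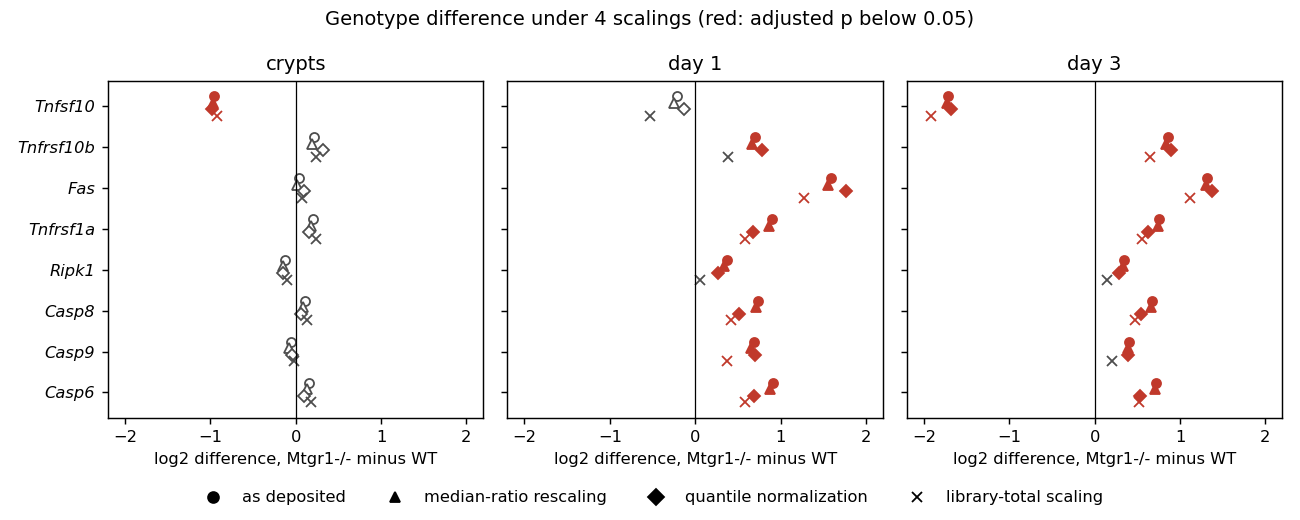
Log2 difference between the genotypes (x axis) of the 8 genes (y axis) with the counts as deposited and under 3 other scalings, marked by 4 symbols, with red for an adjusted p below 0.05 (limma). Library-total scaling moved the values of day 1 and day 3 to the left, and *Ripk1* lost its call on both days.

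Marker genes of intestinal cell types also differed between the genotypes. Of 10 enterocyte markers, 10 were higher in the libraries labelled *Mtgr1*-/- on day 1 and 10 on day 3, and their summed normalized count was 422676 to 735416 on day 1 against 146279 to 191799 in WT, and 335541 to 574702 on day 3 against 107763 to 118875. All 6 stem cell markers, all 7 Paneth cell markers and all 5 goblet cell markers listed were lower on both days. Of 6 pan-epithelial markers, 1 was higher in crypts, 3 on day 1 and 5 on day 3. In crypts, all 5 goblet markers and 1 of 6 stem cell markers were lower. The stem cell markers summed to 4982 to 11192.5 in the libraries labelled *Mtgr1*-/- and to 35742 to 44975 in WT. Their median log2 difference in crypts was -0.30. The summed enterocyte markers overlapped there (326523 to 630101 against 347271 to 477074 in WT), and the 7 Paneth markers lay apart without passing the threshold (1363 to 44602 against 127344 to 162953). The 14 leukocyte markers did not pass it either, and they summed to 30936 in WT library 3, 3093 and 3515 in the other WT libraries and 774 to 3534 in the libraries labelled *Mtgr1*-/-. Of the 9 that passed the filter on day 1, 1 was higher, and of the 3 that did so on day 3, 2 were. On day 3 all 14 summed to 45.7 to 62.0 in WT and 86.5 to 461 in the libraries labelled *Mtgr1*-/-. The epithelial markers then summed to 121582 or more in every library. Markers of stroma and vessels summed to at most 274 at any time point. Of 9 such markers, 8 were listed in crypts, 3 on day 1 and 4 on day 3, and the authors omitted genes with almost no reads. In these bulk libraries, fewer cells of a type and less RNA per cell cannot be told apart, and the part of cell composition in the differences of the 8 genes was not tested.

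*Tnfsf10* (ENSMUSG00000039304.11, chr3:27317028-27342427, plus strand), the ligand TRAIL, was the member with the opposite pattern. Crypts had normalized counts of 2968, 2489 and 3267 in WT and 1803, 1435 and 1289.8 in the libraries labelled *Mtgr1*-/-. On day 1 they were 579.8, 660.2 and 458 against 393, 454 and 628. On day 3 they were 1012, 912 and 720.2 against 200.2, 299 and 307. The genotypes were apart in crypts and on day 3, with WT higher, as were 13.5% and 34.2% of all genes tested, whereas they overlapped on day 1. The log2 difference was -0.95 (95% interval -1.32 to -0.58, adjusted p = 0.0200, limma) in crypts, -0.21 (95% interval -0.68 to 0.25, adjusted p = 0.387, limma) on day 1 and -1.72 (95% interval -2.17 to -1.28, adjusted p = 2.24e-04, limma) on day 3. This was 0.303 times the WT level on day 3. The day 1 difference ranged from -0.40 without *Mtgr1*-/- library 3 to -0.068 without *Mtgr1*-/- library 1, with -0.36 without WT library 3 and -0.10 without WT library 2. It was -0.53 under library-total scaling (adjusted p = 0.0547), -0.13 with quantile normalization and -0.42 with array weights, where it passed (adjusted p = 0.0468, limma). The crypt call was lost without WT library 1 (adjusted p = 0.0964, limma), without *Mtgr1*-/- library 2 (0.0534) or without *Mtgr1*-/- library 3 (0.0616), while the difference itself stayed between -1.09 and -0.84. Without WT library 3, which held the most leukocyte RNA, it was -0.86 (adjusted p = 0.0484, limma).

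**Figure D3:**
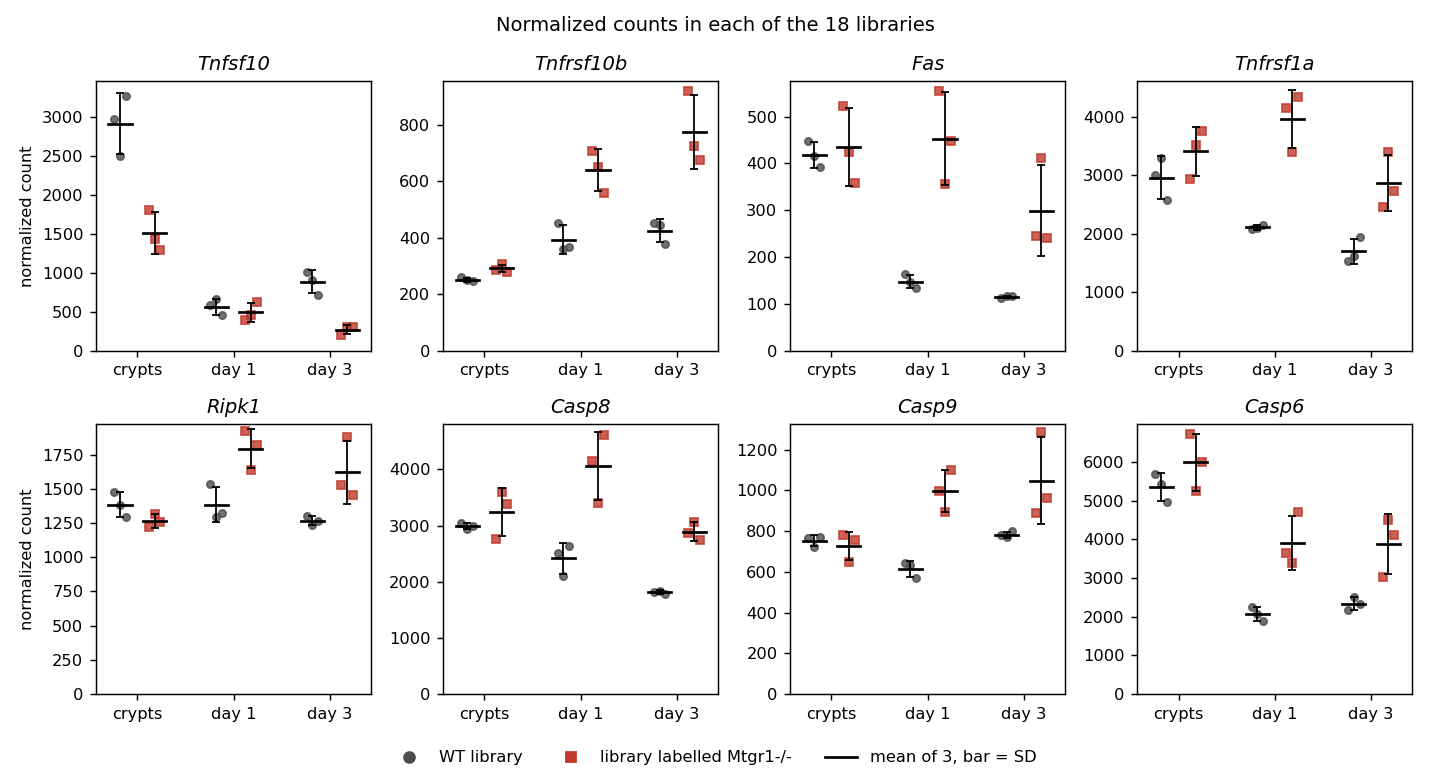
Normalized count (y axis, linear, from 0) of each gene in all 18 libraries, by time point (x axis), with WT as grey circles and the libraries labelled *Mtgr1*-/- as red squares, horizontal lines for the mean of 3 and bars for the SD. Counts were normalized within each time point, so that heights are compared only within one. The genotypes are separate on day 1 and day 3 in every panel, except for *Tnfsf10* on day 1.

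*Tnfrsf10b* (ENSMUSG00000022074.6, chr14:69767472-69784411, plus strand) encodes the receptor through which TRAIL triggers death in the mouse. Crypts held 259.7, 248 and 245 normalized counts in WT and 287, 306 and 279.5 in the libraries labelled *Mtgr1*-/-. They were 452, 360.3 and 366 against 707, 649.6 and 559 on day 1 and 451, 446 and 378 against 920.5, 725 and 676 on day 3. The genotypes did not overlap at any of the 3 time points, with the libraries labelled *Mtgr1*-/- higher. In crypts, where 12% of all genes tested lay apart in that direction, the difference of 0.21 did not pass the threshold (adjusted p = 0.397, limma). It was 0.70 (95% interval 0.38 to 1.02, adjusted p = 0.00358, limma) on day 1 and 0.85 (95% interval 0.54 to 1.17, adjusted p = 0.00128, limma) on day 3. On day 3, ligand and receptor thus differed between the genotypes in opposite directions.

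*Fas* (ENSMUSG00000024778.13, chr19:34290666-34327772, plus strand) encodes the receptor that the ligand *Fasl* engages. Crypts held 448, 417 and 391 normalized counts in WT and 523, 424 and 358 in the libraries labelled *Mtgr1*-/-, so that the genotypes overlapped. On day 1 they were 163, 146 and 134 against 554, 357 and 448. On day 3 they were 113, 117 and 116 against 245, 411 and 240.3. Each library labelled *Mtgr1*-/- was above every WT library on both days, and the 3 WT libraries of day 3 were close together (115 ± 2.03, SD, n = 3) compared with the others (299 ± 97.1). The log2 difference was 0.040 (95% interval -0.34 to 0.42, adjusted p = 0.927, limma) in crypts, 1.59 (95% interval 1.17 to 2.02, adjusted p = 4.06e-04, limma) on day 1 and 1.32 (95% interval 0.83 to 1.81, adjusted p = 0.00126, limma) on day 3. These correspond to 3.02 fold and 2.49 fold, the largest ratio among the 8 genes on each day. Both calls held under all 19 alternatives, with log2 differences of 1.27 to 1.82 on day 1 and 1.06 to 1.45 on day 3.

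*Tnfrsf1a* (ENSMUSG00000030341.17, chr6:125349362-125362484, plus strand) encodes the first TNF receptor, which gathers *Tradd* and *Ripk1*. Crypts had normalized counts of 3001, 3303 and 2573 in WT and 2945, 3522 and 3764 in the libraries labelled *Mtgr1*-/-, which overlapped (adjusted p = 0.472, limma). On day 1 the WT libraries lay within 2085 to 2152, and the libraries labelled *Mtgr1*-/- were at 4147, 3396 and 4349. On day 3 the values were 1535, 1622 and 1939 against 2464, 3408 and 2741. The groups were apart on both days, with log2 differences of 0.90 (95% interval 0.66 to 1.14, adjusted p = 4.34e-04, limma) and 0.75 (95% interval 0.44 to 1.07, adjusted p = 0.00224, limma). Both calls held under all 19 alternatives.

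*Ripk1* (ENSMUSG00000021408.15, chr13:34002363-34037147, plus strand) had the smallest differences in enteroids among the 7 genes that were higher in the libraries labelled *Mtgr1*-/-. Its normalized counts were 1475, 1381 and 1292 in WT crypts and 1222, 1317 and 1254 in crypts of the libraries labelled *Mtgr1*-/-. They were 1533, 1292 and 1326 against 1922, 1639 and 1817 on day 1 and 1299, 1237 and 1265 against 1527, 1880.0 and 1453 on day 3. The lowest library labelled *Mtgr1*-/- was above the highest WT library on both days, by a margin smaller than the range of either group on day 1. The log2 difference was -0.13 (95% interval -0.33 to 0.080, adjusted p = 0.496, limma) in crypts, 0.37 (95% interval 0.14 to 0.61, adjusted p = 0.0149, limma) on day 1 and 0.35 (95% interval 0.10 to 0.59, adjusted p = 0.0228, limma) on day 3. The day 1 call was lost without WT library 2 (adjusted p = 0.0585, limma), WT library 3 (0.0540) or *Mtgr1*-/- library 1 (0.0588). That of day 3 was lost without WT library 1 (0.0521), 2 (0.0729) or 3 (0.0665). The *Ripk1* locus overlaps the opposite strand gene *Serpinb6a*, and the library kit kept strand. On the same strand, *Ripk1* overlaps the processed pseudogene *Gm17084*, *Casp8* overlaps *Gm37760* and *Fas* overlaps *Gm27818*. How reads were split between these genes was not tested.

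*Casp8* (ENSMUSG00000026029.14, chr1:58795374-58847503, plus strand), the initiator caspase at death receptors, had normalized counts in crypts of 3051, 2947 and 2999.8 in WT and 2756, 3594 and 3379 in the libraries labelled *Mtgr1*-/-. On day 1 they were 2507, 2107 and 2643 against 4153, 3405 and 4607. On day 3 they were 1821, 1839 and 1783 against 2862, 3068 and 2736. The groups overlapped in crypts and were apart on both days in culture. The log2 difference was 0.10 (95% interval -0.16 to 0.37, adjusted p = 0.682, limma) in crypts, 0.74 (95% interval 0.43 to 1.05, adjusted p = 0.00254, limma) on day 1 and 0.67 (95% interval 0.50 to 0.84, adjusted p = 2.14e-04, limma) on day 3, and both calls in culture held under all 19 alternatives.

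*Casp9* (ENSMUSG00000028914.13, chr4:141793612-141815976, plus strand), the initiator caspase of the mitochondrial arm, stood at 766, 721 and 772 in WT crypts and 779.8, 651 and 754 in crypts of the libraries labelled *Mtgr1*-/-, which overlapped (log2 difference -0.052, adjusted p = 0.846, limma). On day 1 the normalized counts were 645, 632 and 571 against 996, 892 and 1102, and on day 3 779.8, 770.4 and 799 against 887, 1289 and 963. The libraries labelled *Mtgr1*-/- were above WT on both days. On day 3 their SD was 214, against 14.4 in WT, with *Mtgr1*-/- library 2 the highest. The log2 difference was 0.69 (95% interval 0.43 to 0.95, adjusted p = 0.00145, limma) on day 1 and 0.40 (95% interval 0.084 to 0.72, adjusted p = 0.0347, limma) on day 3. The day 3 call was lost without the variance trend (adjusted p = 0.0626, limma) and without WT library 1 (0.0867), 2 (0.0945) or 3 (0.0781), while that of day 1 held under all 19 alternatives. Without *Mtgr1*-/- library 2, the day 3 difference was 0.24 (adjusted p = 0.0341). *Cela2a* and *Ctrc* overlap *Casp9* on the opposite strand.

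*Casp6* (ENSMUSG00000027997.9, chr3:129901425-129914103, plus strand) encodes an effector caspase that cleaves lamin A. Crypts had normalized counts of 5687, 5429.9 and 4974 in WT and 6730.4, 5247 and 6010.0 in the libraries labelled *Mtgr1*-/-. In day 1 enteroids they were 2241, 2075 and 1879.8 against 3637, 3388 and 4704. In day 3 enteroids they were 2175, 2504 and 2319 against 3024, 4497 and 4124. The genotypes overlapped in crypts and were apart on both days in culture. The log2 difference was 0.16 (95% interval -0.12 to 0.43, adjusted p = 0.536, limma) in crypts, 0.91 (95% interval 0.60 to 1.22, adjusted p = 0.00108, limma) on day 1 and 0.72 (95% interval 0.38 to 1.05, adjusted p = 0.00350, limma) on day 3. Both calls in culture held under all 19 alternatives.

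A single model over the 18 libraries, in which mouse entered as a random effect, tested whether the genotype difference changed with culture. From crypts to day 1, the difference became more positive for 7 of the 8 genes, beside 19.4% of all genes tested. The change was largest for *Fas*, at 1.55 (95% interval 0.95 to 2.15, adjusted p = 0.00158, limma). It was 0.75 (adjusted p = 0.0102, limma) for *Casp6*, 0.74 (adjusted p = 0.00449, limma) for *Casp9*, 0.70 (adjusted p = 0.0109, limma) for *Tnfrsf1a*, 0.64 (adjusted p = 0.00714, limma) for *Casp8*, 0.50 (adjusted p = 0.0110, limma) for *Ripk1* and 0.49 (adjusted p = 0.0438, limma) for *Tnfrsf10b*. In these 7 genes, the change from crypts to day 1 in each of the 3 mice labelled *Mtgr1*-/- lay beyond that of every WT mouse. The test used the same changes, and the share of all genes with mice so apart was not counted, so this is a description only. For *Tnfsf10* the change was 0.74 (95% interval 0.11 to 1.36, adjusted p = 0.0582, limma), and it passed the threshold without *Mtgr1*-/- mouse 1 (adjusted p = 0.0190). From crypts to day 3, the difference became more positive for 6 genes, beside 16.3% of all genes. The 2 others were *Casp9*, at 0.45 (adjusted p = 0.0568, limma), and *Tnfsf10*, at -0.77 (adjusted p = 0.0580, limma). That of *Casp9* passed without *Mtgr1*-/- mouse 1 (0.61, adjusted p = 0.0312) and after median-ratio rescaling (0.0483), and was 0.21 without *Mtgr1*-/- mouse 2. That of *Tnfsf10* passed without WT mouse 3 (adjusted p = 0.0452) and without *Mtgr1*-/- mouse 3 (0.0284), and was -0.44 without *Mtgr1*-/- mouse 1.

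Several of these calls were lost when a mouse was left out, which also leaves fewer samples in the fit. With one of the 6 mice left out, 4 to 6 of the 8 genes passed from crypts to day 1, with 4 without WT mouse 2 and 4 without *Mtgr1*-/- mouse 1. From crypts to day 3, 1 to 6 passed, with 1 without WT mouse 1 and 1 without WT mouse 2. *Fas* passed in both contrasts whichever mouse was left out, and *Casp9* in the first. The change of *Tnfrsf10b* from crypts to day 1 was lost with any of the 6 mice left out (adjusted p = 0.0518 to 0.154, limma). The change of *Casp6* from crypts to day 3 was lost in 10 of 13 alternatives, among them 5 of the 6 that left out a mouse, and was 0.35 without *Mtgr1*-/- mouse 2 (adjusted p = 0.195). The mouse as a fixed term ended the calls of *Tnfrsf1a* and *Casp6* from crypts to day 3 (adjusted p = 0.0610 and 0.0603). Under library-total scaling, 2 genes passed in each contrast, *Fas* and *Casp9* from crypts to day 1, and *Fas* and *Tnfsf10* from crypts to day 3, where that of *Tnfsf10* was negative (-1.001, adjusted p = 0.0216).

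Between day 1 and day 3, the change of the genotype difference passed the threshold for 0 of the 8 genes, beside 0.0309% of all genes, which was 4 genes. At an unadjusted p under 0.05 there was 1, *Tnfsf10*. Its change was -1.51 (95% interval -2.13 to -0.88, adjusted p = 0.0708, limma), and the unadjusted p was 1.09e-04. The difference of -0.21 on day 1 and that of -1.72 on day 3 came with changes in the 3 mice labelled *Mtgr1*-/- that all lay below those of the WT mice. It passed without *Mtgr1*-/- mouse 2 (adjusted p = 0.0188, limma) and with a pseudocount of 8 (0.0417). Without *Mtgr1*-/- mouse 2, that of *Casp9* passed too, at -0.53 (adjusted p = 0.0202).

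Levels over time were set side by side in CPM, in which every library is scaled to the same total, as a description with no test, since the authors normalized each time point separately. In WT, *Fas* was at 16.5 ± 1.35 CPM in crypts, 6.19 ± 0.455 on day 1 and 4.81 ± 0.0404 on day 3 (SD, n = 3). In the libraries labelled *Mtgr1*-/-, *Fas* was 17.6 ± 4.26, 15.1 ± 2.40 and 10.7 ± 2.79 CPM. The day 1 level was therefore 0.376 times the crypt level in WT and 0.858 times in the others, where 1 of 3 libraries lay below all crypt libraries. *Casp6* was 211 ± 17.2, 86.6 ± 6.17 and 97.3 ± 6.22 CPM in WT, and 241 ± 33.8, 131 ± 17.9 and 140 ± 20.8 in the libraries labelled *Mtgr1*-/-. Its day 1 level was 0.411 times that of crypts in WT and 0.543 times in the others, and all 3 libraries of each genotype lay below their crypt libraries. The means of *Fas* and *Casp6* in enteroids labelled *Mtgr1*-/- thus lay below their crypt means, and those of WT enteroids lay lower still.

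*Tnfsf10* was lower in culture in both genotypes, with 114 ± 14.9 CPM in WT crypts, 23.8 ± 4.73 on day 1 and 36.8 ± 6.61 on day 3, and 61.0 ± 13.6, 16.5 ± 3.77 and 9.70 ± 1.84 in the libraries labelled *Mtgr1*-/-. From day 1 to day 3 it was 1.55 times in WT, where all 3 libraries lay above those of day 1, and 0.588 times in the others, where all 3 lay below. *Tnfrsf10b* went the other way, at 1.66 times its crypt level on day 1 in WT and 1.84 times in the libraries labelled *Mtgr1*-/-, with all 3 libraries of each genotype above their crypt libraries. *Tnfrsf1a* and *Casp8* on day 3 were at 0.608 and 0.642 times the crypt level in WT and at 0.759 and 0.805 times in the others. For *Ripk1* and *Casp9* in WT, the direction depended on the scaling. *Ripk1* on day 1 was 1.07 times the crypt level by CPM and 0.893 times after median-ratio rescaling over the 18 libraries, and *Casp9* on day 3 was 1.10 and 0.885 times. In WT, 6 of the 8 genes had a lower mean on day 1 than in crypts by CPM, and 7 after that rescaling.

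**Figure D4:**
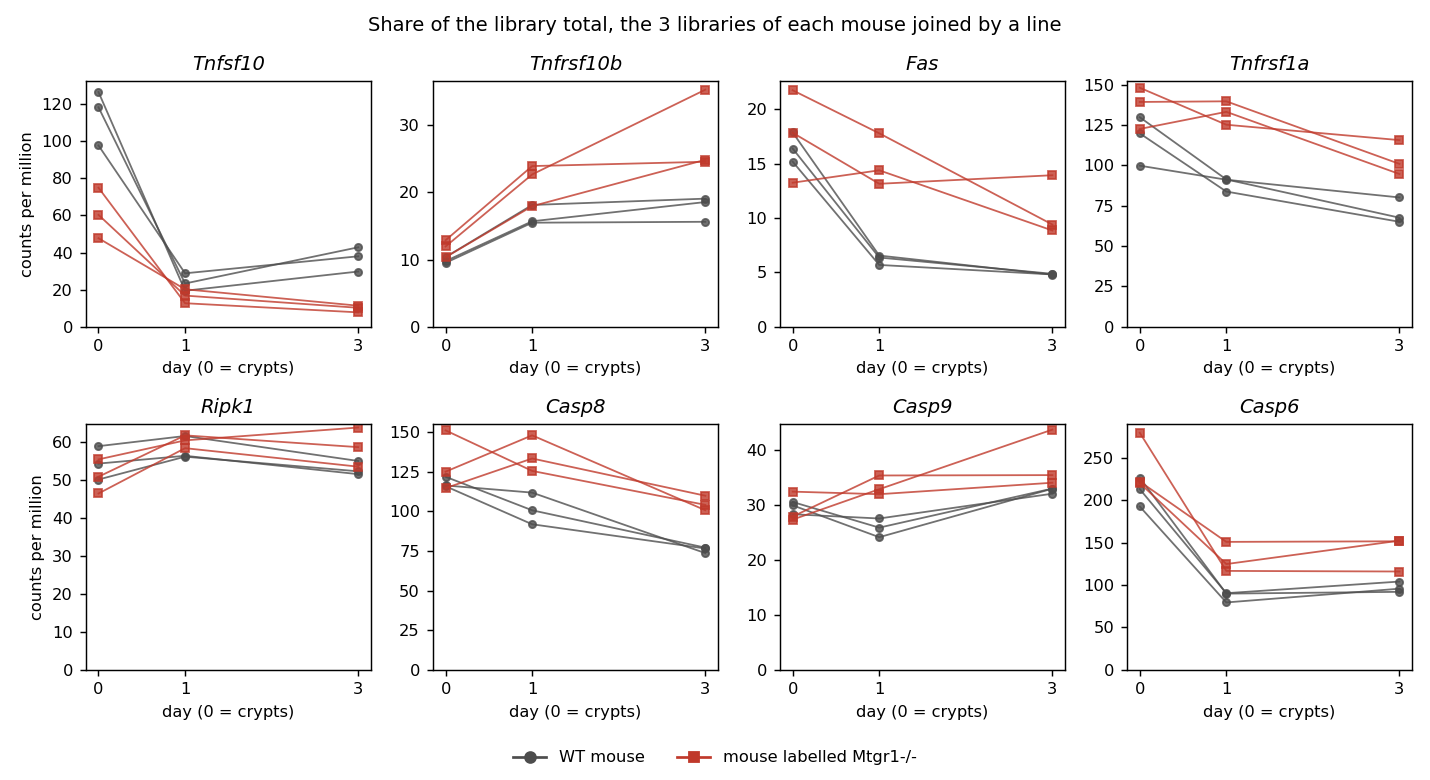
Level of each gene in CPM, with every library scaled to the same total (y axis, linear, from 0) by day (x axis, with 0 for crypts), with the 3 libraries of each mouse joined by a line, in grey for WT and red for mice labelled *Mtgr1*-/-. *Fas* and *Casp6* are lower on day 1 than in crypts in all 3 WT mice, and *Tnfrsf10b* is higher in all 6 mice.

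After centring on the mean of each day over the 18 libraries, log2 levels of *Fas* correlated with those of *Casp9* (Pearson's r = 0.931), *Casp6* (0.924) and *Tnfrsf1a* (0.908), and with *Tnfsf10* at -0.535. These correlations hold the genotype difference. After centring on each genotype as well, they were 0.720, 0.530, 0.382 and 0.258. *Ripk1* with *Fas* stood at 0.904 and 0.768, and *Casp9* with *Casp6* at 0.934 and 0.795, the highest pairs after both centrings. Other pairs did not go together within genotypes. After both centrings, *Fas* with *Casp8* was at 0.160. *Tnfrsf10b* was at 0.081 with *Fas*, 0.271 with *Ripk1* and 0.031 with *Casp8*. With *Casp6* it was at -0.487, with *Tnfrsf1a* at -0.414, with *Casp9* at -0.361 and with *Tnfsf10* at -0.376. Libraries share depth, scaling and cell composition, and no test is given. Of 11161 genes with a mean of at least 50, the 3 whose day-centred pattern was most like that of *Fas* were *Arhgap18* (r = 0.985), *Nat2* (0.978) and *Chmp3* (0.978). The 3 most like *Tnfsf10* were *Golim4* (0.907), *Slx1b* (0.896) and *Sesn3* (0.895).

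The wider pathway was followed in a list of 65 other genes, of which 56 passed the filter in crypts, 57 on day 1 and 57 on day 3. In crypts, 0 of 56 passed the threshold in limma, where 10 had an unadjusted p under 0.05, edgeR on recovered reads called 0, DESeq2 called 2 and limma with array weights 4. On day 1, 20 were higher and 7 lower in the libraries labelled *Mtgr1*-/-, and on day 3, 27 were higher and 10 lower. The median log2 difference of the list was 0.16 on day 1 and 0.22 on day 3. The shares called, 47.4% and 64.9%, stand beside 58.9% and 59% of all genes. Under library-total scaling, the split was 12 higher to 22 lower on day 1 and 20 to 19 on day 3, with 8 and 7 calls lost, all of them rises, and no called gene that turned its sign. The counts by role stand beside 30% of all genes higher and 28.9% lower on day 1, and 29.9% and 29.1% on day 3. Counts under library-total scaling stand beside 2206 higher and 5588 lower of 12587 genes on day 1. On day 3 they stand beside 2755 higher and 5081 lower of 12782. Lower calls thus outnumbered higher ones over all genes under that scaling. Genes of the list beyond those fixed by the naming rule are named to fill each role and were chosen after their values were seen. Each log2 difference below comes from limma, and each gene said to be higher or lower passed the threshold. Rises and falls of the list are differences between the genotypes, not changes over time.

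Of the ligands, *Fasl*, the partner of *Fas*, was at 20.1, 20.8 and 139 in WT crypts and 9.42, 7.61 and 12.2 in the others (log2 difference -1.92, adjusted p = 0.246, limma). The high value was that of WT library 3, which held the most leukocyte RNA, and without it the difference was -1.02 (adjusted p = 0.245). On recovered reads, which left WT libraries 1 and 3 against 3 others, it was -3.05 in DESeq2 (adjusted p = 0.0212), and it did not pass in edgeR (adjusted p = 0.164). In enteroids *Fasl* was at 6.70 or less on day 1 and at 0 in 5 of 6 libraries on day 3. A count of 0 in a library is still compatible with an expected count of up to about 3 reads. *Tnf*, the ligand of *Tnfrsf1a*, was at 112, 103 and 52.8 in WT and 54.8, 65.4 and 40.8 in the libraries labelled *Mtgr1*-/- on day 1, which overlapped (log2 difference -0.67, adjusted p = 0.115, limma). Libraries with the same mouse number deviated together on day 1, and blocking on it gave *Tnf* an adjusted p of 0.0370, as it was 0.0212 without WT library 3 (log2 difference -1.01) and 0.0418 under library-total scaling. On day 3 the difference of *Tnf* was 0.10 (adjusted p = 0.626).

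The decoy receptors for TRAIL bind the ligand without passing on a death signal. *Tnfrsf23* was at 261, 150.0 and 178 in WT and 1113, 643 and 926 in the libraries labelled *Mtgr1*-/- on day 1 and at 123, 90.8 and 111 against 618, 787 and 460.4 on day 3. Its log2 differences, 2.19 and 2.49 (adjusted p = 4.43e-04 and 5.71e-05), were the largest rises of the list on both days. On day 3, *Tnfrsf11b*, which encodes osteoprotegerin, and *Tnfrsf22* were also higher (1.93 and 1.04), so that 3 of 3 tested decoys rose. *Tnfrsf22* and *Tnfrsf23* are similar neighbouring genes, and how reads were split between them was not tested. On day 1, *Tnfrsf11b* had a log2 difference of -0.41 (adjusted p = 0.284). Among other receptors, *Tnfrsf1b*, the second TNF receptor, was lower on day 1 (-1.13, adjusted p = 4.45e-04) and at 0.083 on day 3 (adjusted p = 0.663).

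Among caspases outside the 8 genes, *Casp1*, an inflammatory caspase, was higher on both days (0.64 and 0.49), and *Casp2* was lower on both (-0.32 and -0.24). *Casp4* and *Casp12* were lower on day 3 (-0.59 and -1.12). The call of *Casp12* (adjusted p = 0.0472) was lost without any of WT libraries 1, 2 and 3 (adjusted p = 0.147, 0.117 and 0.0624) or *Mtgr1*-/- library 2 (0.0781, with a log2 difference of -0.65). In all, 12 of 19 alternatives ended it. Among them were edgeR (-0.69, adjusted p = 0.0893) and DESeq2 (-0.68, adjusted p = 0.144) on recovered reads, and limma with array weights (-0.46, adjusted p = 0.129).

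Of 6 inhibitors of caspases, 3 were higher and 1 (*Aven*) lower on day 1, and 3 were higher on day 3. Under library-total scaling, 2 were higher and 2 lower on day 1, and 2 were higher and 1 lower on day 3. *Cflar*, which encodes c-FLIP, a competitor of caspase-8 at the receptors, was at 1333, 1334 and 1346 in WT and 2257, 2246 and 2143 in the libraries labelled *Mtgr1*-/- on day 1, with log2 differences of 0.73 and 0.71 on days 1 and 3 (adjusted p = 2.66e-04 and 0.00134). *Xiap*, a direct caspase inhibitor, was at 0.86 and 0.65, and *Birc3* at 0.58 and 0.34. Under that scaling, *Birc3* was at 0.26 (adjusted p = 0.145) and 0.14 (adjusted p = 0.202).

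Adaptors did not move as one. *Fadd*, which links *Fas* and *Tnfrsf10b* to caspase-8, had a log2 difference of -0.071 on day 1 (adjusted p = 0.570) and was lower on day 3 (-0.39, adjusted p = 0.00877). Under library-total scaling it was lower on day 1 too (-0.39, adjusted p = 0.0220). *Tradd*, the adaptor of *Tnfrsf1a*, was higher on both days (0.89 and 0.67). *Pidd1* was lower on both (-0.80 and -0.86), and *Traf5* was lower on day 3 (-1.08, adjusted p = 0.00282). Of 8 adaptors, 2 were higher and 1 lower on day 1, and 1 was higher and 3 lower on day 3. Under library-total scaling, 1 was higher and 6 lower on day 1, and 1 was higher and 4 lower on day 3.

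Around *Ripk1*, 8 of 16 genes for its ubiquitination and for the kinases that act with it were higher on day 1 and 0 lower, and 10 were higher and 1 lower on day 3. Under library-total scaling, the split was 4 higher to 4 lower on day 1 and 6 to 5 on day 3. *Mlkl*, the effector of necroptosis, was higher on both days (1.04 and 1.20, adjusted p = 0.00684 and 9.64e-05). *Rnf31* and *Sharpin*, of the linear ubiquitin ligase, were higher on both (1.05 and 0.51 on day 1, 0.78 and 0.33 on day 3), whereas *Rbck1*, its other subunit, was at -0.033 and -0.17 without passing. *Ripk3* was higher on day 3 (0.39). Under library-total scaling, the calls of *Sharpin* on both days and of *Ripk3* were lost (adjusted p = 0.208, 0.204 and 0.237), and *Rbck1* was lower on day 3 (-0.37, adjusted p = 0.0125). In the mitochondrial arm, *Apaf1* and *Cycs*, whose products form the apoptosome with caspase-9, were higher on day 1 (0.54 and 0.53) and on day 3 (0.45 and 0.61), and *Htra2* was lower (-0.72 and -0.56). *Bid*, the link between the arms, was at -0.068 on day 1 (adjusted p = 0.643) and higher on day 3 (0.31, adjusted p = 0.0258), a call lost without WT library 1 (0.0916), WT library 3 (0.0820) or *Mtgr1*-/- library 3 (0.0921). Under library-total scaling, the calls of *Bid* (0.11, adjusted p = 0.413) and of *Apaf1* on both days (adjusted p = 0.0624 and 0.0858) were lost, and of the 5 genes of this arm 1 was higher and 2 lower on each day, against 2 and 1 on day 1 and 3 and 1 on day 3 before.

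Of 7 caspase substrates, 1 was higher and 2 lower on each day. Under library-total scaling, 0 were higher and 5 lower on day 1, and 1 was higher and 4 lower on day 3. *Lmna*, whose product lamin A is cleaved by caspase-6, was higher (0.51 and 0.84), a call that library-total scaling ended on day 1 (adjusted p = 0.340). *Parp1*, a DNA damage sensor and known caspase substrate, had the largest fall of the list on both days. It was at 2749, 2924 and 2877 in WT and 861, 1255 and 764 in the libraries labelled *Mtgr1*-/- on day 1, a log2 difference of -1.60 (95% interval -1.999 to -1.20, adjusted p = 3.28e-04, limma), and at -1.21 on day 3 (adjusted p = 6.46e-04). *Acin1* was lower on both days (-0.36 and -0.34). RNA levels do not measure cleavage or activity of these proteins.

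**Figure D5:**
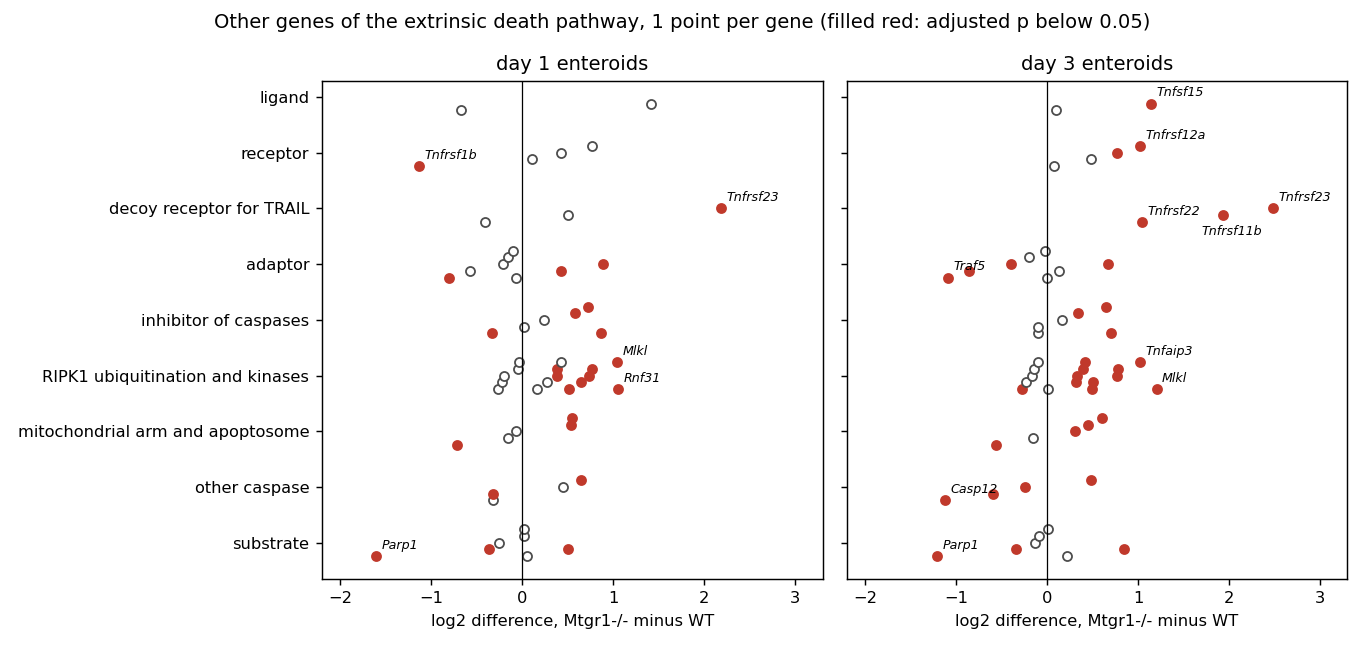
Log2 difference between the genotypes (x axis) for tested genes of the wider pathway list reported here (1 point per gene), by role (y axis), on day 1 and day 3, with filled red points for an adjusted p below 0.05 (limma) and names for called genes beyond 1 or -1. *Tnfrsf23* lies farthest to the right, at 2.19 on day 1 and 2.49 on day 3, and *Parp1* farthest to the left, at -1.60 and -1.21.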

How the data were processed

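The 18 libraries were assigned to genotype, time point and mouse number from their labels. The authors made stranded mRNA libraries, sequenced single reads, trimmed them with fastp 0.20.0, ran Salmon 1.3.0 against GENCODE mouse transcripts (v21, GRCm38), imported gene totals through tximeta and compared the genotypes with DESeq2 1.26.0. What the authors deposited per library is a signal on a linear scale, the gene count over 1 normalization factor that was set within each time point, and a mean signal was deposited beside it. The deposited log2 columns are the authors' log2 fold changes and standard errors, the deposited score is their Wald statistic, and the deposited p-value columns are their p-values and adjusted p-values. None of these was used.

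Here, limma 3.58.1 (trend, R 4.3.3) compared 3 libraries with 3 on log2(normalized count + 1) for genes whose mean reached 10. Tests were two-sided, and p-values were adjusted by Benjamini-Hochberg over all genes tested at a time point (12980 in crypts, 12587 on day 1, 12782 on day 3). The smallest exact permutation p of 3 against 3 is 0.1, so that adjusted p-values rest on the moderated model. The change of the genotype difference was tested on 12937 genes over the 18 libraries, with a random effect for mouse (estimated correlation 0.00576). Counts were converted to CPM only for levels over time. Reads were recovered as whole multiples of the step between low values within 0.1 of a read (100% of values) for 16 libraries (all but WT library 2 of crypts and *Mtgr1*-/- library 2 of day 3), which entered edgeR 4.0.16 (209, 7383 and 7242 genes called in crypts, on day 1 and on day 3) and DESeq2 1.42.0. Genes near the minimum mean therefore rest on about 10 reads. Steps were tested on simulated data. Libraries with the same mouse number deviated together on day 1 (correlations over genes 0.116, 0.231 and 0.216), but not in every pair in crypts (0.0764, 0.274 and 0.346) or on day 3 (-0.0067, -0.0023 and -0.016).

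The 8 genes, the pathway list and the marker lists were chosen with earlier results of these data known. Named genes were all 8, *Cbfa2t2*, up to 3 largest rises and 3 largest falls of the pathway list past the threshold at each time point, a set of genes named whatever their values (*Fadd*, *Cflar*, *Bid*, *Fasl* and *Tnf*), and the 3 genes most like *Fas* and *Tnfsf10*. Some genes of the pathway list, though counted, are not reported here. Promoter windows came from RefSeq and gene positions from GENCODE, both on GRCm38. Figures were drawn with matplotlib 3.10.9. Alternatives left out each library, and changed the pseudocount, filter, scaling, trend, weights, block or test. Library-total scaling and a term for *Xist*-high libraries were added after the data were seen.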

Additional observations from a re-analysis of the deposited data

Results flagged for a closer look

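The difference between the genotypes itself differed between time points for 13 values, by the test of the change in limma. From crypts to day 1, the log2 difference became more positive for *Fas* (1.55, adjusted p = 0.00158), *Tnfrsf10b* (0.49, adjusted p = 0.0438), *Tnfrsf1a* (0.70, adjusted p = 0.0109), *Ripk1* (0.50, adjusted p = 0.0110), *Casp8* (0.64, adjusted p = 0.00714), *Casp9* (0.74, adjusted p = 0.00449) and *Casp6* (0.75, adjusted p = 0.0102). From crypts to day 3, it did so for *Fas* (1.28, adjusted p = 0.00557), *Tnfrsf10b* (0.64, adjusted p = 0.0174), *Tnfrsf1a* (0.55, adjusted p = 0.0431), *Ripk1* (0.47, adjusted p = 0.0203), *Casp8* (0.57, adjusted p = 0.0180) and *Casp6* (0.56, adjusted p = 0.0493). The 3 mice labelled *Mtgr1*-/- all lay beyond the 3 WT mice in 11 of the 13 values, the exceptions being *Tnfrsf1a* and *Casp6* from crypts to day 3, with 2 of 3. The 13 values were picked by the test on these same changes, so this separation is a description only. Its share over all genes was not counted. Both contrasts share the crypt libraries and are not independent. In groups of 3, single outlying libraries were not tested for.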

How the results depend on the processing

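In crypts, 1 of the 8 genes was called under every alternative except 3 that left out 1 library, over which the count was 0 to 1. Over all genes in crypts, limma called 614, and on recovered reads, without WT library 2, edgeR called 209 and DESeq2 1200. The pathway list, with 0 calls in crypts, had 4 with array weights and 2 with DESeq2. On day 1 and day 3, counts for the 8 genes stayed within 5 to 8 and those for the pathway list within 1.5 times. The change from crypts to day 1, with 7 calls, had 2 under library-total scaling and 4 to 6 with 1 mouse left out. From crypts to day 3, with 6 calls, there were 2 under library-total scaling and 1 to 6 with 1 mouse left out. From day 1 to day 3, with 0 calls, there was 1 with a pseudocount of 8 and 0 to 2 with 1 mouse left out. Without a mouse, fewer samples enter the fit. For the other settings, the cause was not tested. No difference of the 8 genes that was called in any of these fits turned its direction. Under a block for mouse number, 1, 7 and 8 of the 8 genes were called in crypts, on day 1 and on day 3, and 0, 33 and 35 of the pathway list. With each mouse as a fixed term, the changes called were 7, 4 and 0. The block changed the calls of *Cbfa2t2* and *Tnf* on day 1 and of *Casp12* on day 3 (adjusted p = 0.0585), and those of *Tnfrsf1a* (0.0610) and *Casp6* (0.0603) for the change from crypts to day 3, and no other call among the genes refitted one by one. Most genes named for their role in the pathway were not among these. Genes such as *Fasl* in enteroids fell below the minimum mean and were not tested within those time points.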
